A study of Mus musculus with 6 samples.

Results

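The genes described here encode the proteins that make, limit and dissolve blood clots. They were taken as a list of 37 names of clotting factors, fibrinogen chains, anticoagulants, protease receptors and genes of fibrinolysis, the breakdown of clots. Of these, 35 had at least 1 probe set annotated to them alone on the Affymetrix mouse array, out of 18193 genes measured in all, and the probe set with the highest mean over the arrays stood for each gene. Serpine2 and F2rl1 have no level here, and Serpine2 enters only the count of promoter windows below. By role, 21 members are plasma proteins made mainly by the liver in the adult, 7 are products typical of endothelium and 7 of the 9 remaining members (cell-surface, secreted or blood-cell products) were measured.

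In all 6 samples were compared, 2 independent biological replicates each of yolk sac, heart tube and caudal-half tissue of mouse embryos at day 9.5, from a mixed-background strain labelled Wt, with no treatment named. From every tissue, cells were sorted by flow cytometry for CD31, a surface protein of endothelium, and against CD41 and CD45, surface proteins of megakaryocytes with early blood progenitors and of leukocytes. How many embryos made up a sample is not stated in the labels. Each sample was hybridised to 1 array.

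Clotting ends in thrombin, which cuts soluble fibrinogen into the fibrin strands of a clot. In the adult, liver cells secrete fibrinogen and most of the zymogens, while the endothelium keeps blood fluid: thrombomodulin and the endothelial protein C receptor turn thrombin toward activating the anticoagulant protein C, and tissue factor pathway inhibitor stops the start of the cascade. Plasmin, made from plasminogen by tissue-type or urokinase-type plasminogen activator, dissolves fibrin and also acts on extracellular matrix. Before the liver is at work, the visceral endoderm, the epithelium over the vessels of the yolk sac, secretes many plasma proteins.

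Levels are the natural log of the deposited signals, read as log2 values from RMA, a method that corrects, normalises and summarises probe signals. They ran from 0.899 to 14.6. If the deposited signals are linear instead, all differences grow 1.44-fold with the same p-values. Values within 1.33 to 4.03 are called dim. This is the range over the 6 arrays of 27 control probe sets for the bacterial genes dap, lys, phe, thr and trp. These are the bacterial controls meant below, and no other control probe sets enter the range. Replicate arrays correlated at r = 0.981 to 0.986 over all probe sets and arrays from unlike tissues at 0.946 to 0.969. As a check of RNA integrity, Gapdh control probe sets at the 3′ end read above those at the 5′ end by 1.58 and 1.67 on the caudal-half arrays and 1.81 to 2.04 on the others. For the β-actin control the same difference was -0.10 to 0.01 over the 6 arrays. The SD between replicates had a median of 0.17 to 0.20 over the members and of 0.14 to 0.16 over all genes. Differences are limma estimates ± SE (n = 2 arrays a tissue), called at an adjusted p under 0.05 over all genes.

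In both comparisons with the yolk sac, members were called mostly in 1 direction. In heart tube cells 14 of 35 members were lower and 2 higher than in yolk sac cells, where 6.67% and 5.14% of all genes were lower and higher (11.8% in either direction). In caudal-half cells 13 of 35 were lower and 0 higher than in yolk sac cells (4.86% and 4.22% of all genes, 9.08% in either direction), and 21 of 35 had an unadjusted limma p under 0.05, as did 23.8% of all genes. Between heart tube and caudal-half cells only 1 member was higher and 1 lower (2.86% and 2.65% of all genes, 5.51% in either direction), the plasminogen activator genes Plat and Plau. The median difference of the members was -0.74 for heart tube minus yolk sac, -0.70 for caudal-half cells minus yolk sac and -0.07 for heart tube minus caudal-half cells, against -0.06, 0.02 and -0.08 over all genes. The first and second of these comparisons share the yolk sac arrays and are not independent of each other.

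The 3 fibrinogen genes had the largest differences of the list among members lower than in yolk sac cells. Fga, Fgb and Fgg encode the Aα, Bβ and γ chains, which assemble into 1 protein, and lie next to each other within 42.1 kb of mouse chromosome 3 (GRCm38.p6). Because they sit together and moved together, the 250 bases before each annotated start (RefSeq, GRCm38.p6) are shown 5′ to 3′ on the gene's own strand, Fga at chr3:83025903-83026152 (plus strand), Fgb at chr3:83049864-83050113 (minus strand) and Fgg at chr3:83007474-83007723 (plus strand). Capitals mark the letters GTTAAT or, on the other strand, ATTAAC, the core recognised by HNF1, a transcription factor of liver and visceral endoderm.
Fga: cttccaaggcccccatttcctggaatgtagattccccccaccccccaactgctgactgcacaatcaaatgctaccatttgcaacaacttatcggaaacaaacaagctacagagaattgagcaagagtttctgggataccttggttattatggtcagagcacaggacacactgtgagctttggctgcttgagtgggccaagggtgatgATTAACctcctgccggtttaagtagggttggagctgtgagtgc
Fgb: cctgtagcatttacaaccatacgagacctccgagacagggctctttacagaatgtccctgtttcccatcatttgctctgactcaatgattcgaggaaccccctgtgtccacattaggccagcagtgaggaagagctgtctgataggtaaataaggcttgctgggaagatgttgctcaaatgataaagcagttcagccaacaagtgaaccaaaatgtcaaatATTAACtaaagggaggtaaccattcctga
Fgg: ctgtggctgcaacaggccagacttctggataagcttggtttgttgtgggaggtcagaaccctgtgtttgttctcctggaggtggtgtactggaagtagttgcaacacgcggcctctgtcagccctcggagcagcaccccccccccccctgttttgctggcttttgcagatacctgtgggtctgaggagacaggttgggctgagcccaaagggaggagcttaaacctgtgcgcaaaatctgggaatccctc
The core lies 43 to 38 bases before the start in Fga and 29 to 24 bases before it in Fgb, and these letters do not occur in the Fgg window. Of all 32851 windows of this length 6.43% hold them. Among the 17 liver-type members whose windows were searched, 4 do (Fga, Fgb, F13b and Habp2). The letters were in 0 of 5 windows of endothelial members. Of the 7 other members with windows, 1 holds them (Tfpi2, with the same letters in a pair of overlapping windows). Proc was left out of this and the following searches of member windows, while its chromosome was kept among all windows. The full palindrome GTTAATNATTAAC was in 0 of those 17. The letters searched for HNF4, CAAAGTNCA, another factor of liver and visceral endoderm, were in the F9 window alone among the members, against 1.19% of all windows. Of the remaining motifs searched on both strands, the FOX letters TGTTTAC were in 2 of the 17 liver-type windows (F11 and Klkb1, 3.17% of all windows), the GATA letters AGATAA in Serpinf2 and Tfpi (9.99%), the C/EBP letters TTNCGNAA in Habp2 (2.04%) and the ETS letters CCGGAAG in 0 of the members' 32 windows (6.91%). A match describes the letters and not a bound site.

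Fga read 6.15 and 6.10 in yolk sac cells, 2.26 and 1.67 in heart tube cells and 2.16 and 1.91 in caudal-half cells. Only the yolk sac arrays were above the dim range. The difference was -4.16 ± 0.24 for heart tube minus yolk sac and -4.09 ± 0.24 for caudal-half cells minus yolk sac (adjusted p 0.000251 and 0.000524). Fgb read 7.85 and 7.97 in yolk sac cells against 4.24 and 4.65 in heart tube cells and 4.51 and 4.46 in caudal-half cells, differences of -3.46 ± 0.19 and -3.43 ± 0.19. Fgg read 8.02 and 7.60 in yolk sac cells, 2.77 and 3.31 in heart tube cells and 3.53 and 3.46 in caudal-half cells, differences of -4.77 ± 0.25 and -4.31 ± 0.25. All 6 of these differences were called, and the yolk sac arrays stood clear of the 4 others for each gene. On the log2 reading they are 10.8- to 27.2-fold, and outside the yolk sac Fga and Fgg were in the dim range, so that their folds depend on signals near background. Heart tube and caudal-half cells differed by at most 0.45 in these genes (95% interval for Fgg -1.04 to 0.14).

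**Figure D1:**
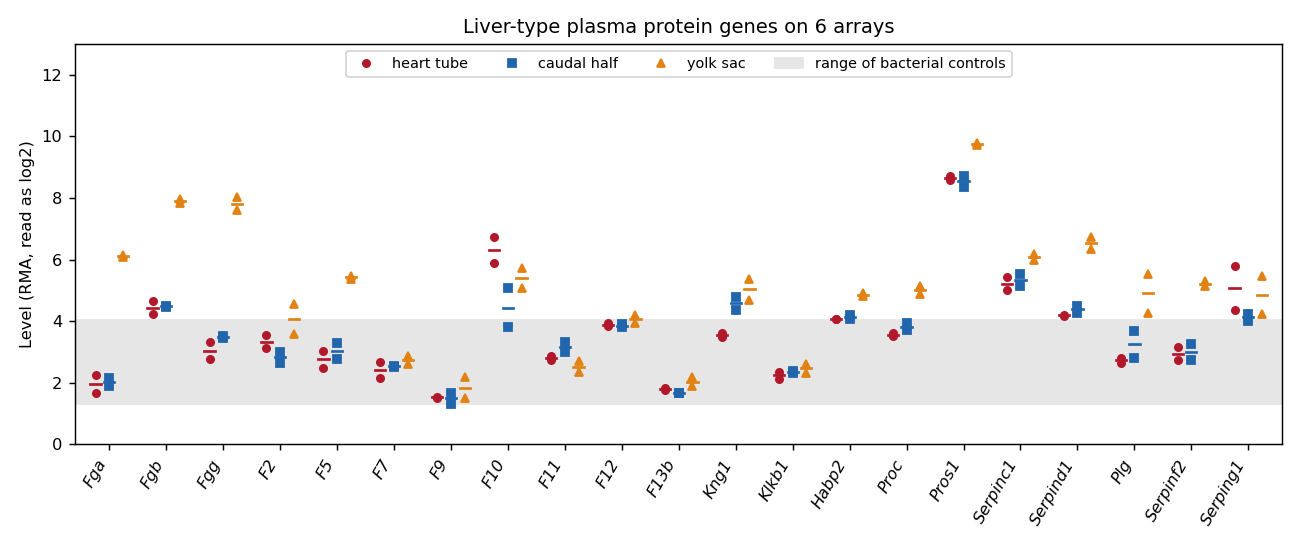
Levels of the 21 liver-type genes on the 6 arrays (points, 2 per tissue; short lines are means; vertical axis RMA values read as log2), with the range of the bacterial controls shaded. Fga, Fgb and Fgg read 6.10 to 8.02 in yolk sac cells and 1.67 to 4.65 elsewhere, whereas F7, F9, F11, F13b and Klkb1 stay in the shaded range on all 6 arrays.

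Cofactors and zymogens of the cascade were less uniform. F5, the cofactor of the prothrombin-cutting complex, read 5.48 and 5.38 in yolk sac cells, 2.48 and 3.05 in heart tube cells and 3.29 and 2.77 in caudal-half cells. It was dim outside the yolk sac, with differences of -2.66 ± 0.26 from heart tube and -2.40 ± 0.26 from caudal-half cells (adjusted p 0.00183 and 0.00428), and its second probe set gave -2.60 and -2.40. F2, prothrombin itself, read 3.58 and 4.57 in yolk sac cells and 2.65 to 3.56 on the other 4 arrays. The groups did not overlap, but neither difference was called (-0.74 ± 0.35 and -1.25 ± 0.35, adjusted p 0.247 and 0.083). The second difference was -1.75 without the first yolk sac array and -0.76 without the second yolk sac array.

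F10, the protease that cuts prothrombin, had another order. It read 5.89 and 6.75 in heart tube cells, 3.80 and 5.07 in caudal-half cells and 5.09 and 5.72 in yolk sac cells. The heart tube arrays were the highest, yet no difference was called (1.88 ± 0.48 against caudal-half cells, adjusted p 0.088), and the SD between the caudal-half arrays (0.89) was the largest of any member there. Its dimmer probe sets gave 0.57 and 1.14 for the same comparison. F7 and F9, proteases of the extrinsic and intrinsic arms, F11, Klkb1 (plasma prekallikrein) and F13b (the carrier subunit of factor XIII) were dim on all 6 arrays. F12, which starts the contact pathway, read 3.80 to 4.21. None of these 6 was called in any comparison.

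A pair of members of the contact and protease group, Kng1 and Habp2, differed by smaller amounts. Kng1, kininogen, read 5.38 and 4.69 in yolk sac cells, 3.61 and 3.48 in heart tube cells and 4.79 and 4.38 in caudal-half cells. Only heart tube minus yolk sac was called (-1.49 ± 0.27, adjusted p 0.0185). Heart tube minus caudal-half cells was -1.04 ± 0.27 (adjusted p 0.0929). Caudal-half and yolk sac arrays overlapped (-0.44 ± 0.27, adjusted p 0.394). Its dimmer probe set gave -0.81 for both heart tube and caudal-half cells minus yolk sac and did not pass, and without either heart tube array or the first yolk sac array the called difference no longer passed (adjusted p up to 0.0999). Habp2, a hyaluronan-binding plasma protease, read 4.82 and 4.90 in yolk sac cells and 4.07 to 4.21 on the other arrays. Differences of -0.79 and -0.72 (SE 0.16 each, adjusted p 0.0258 and 0.0429) were called, and neither was with the mean of its probe sets (0.120 and 0.157). The first was also lost without any single heart tube or yolk sac array (up to 0.123) and the second without any single array (up to 0.159).

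Of the 4 plasma anticoagulants, 3 were called higher in yolk sac cells than in both other tissues. Serpind1, heparin cofactor II, a thrombin inhibitor, read 6.74 and 6.35 in yolk sac cells, 4.22 and 4.18 in heart tube cells and 4.28 and 4.51 in caudal-half cells (-2.35 ± 0.20 and -2.15 ± 0.20, adjusted p 0.00101 and 0.00235). Proc, protein C, read 4.90 and 5.14 in yolk sac cells and 3.52 to 3.93 on the 4 other arrays, all 4 of them dim (-1.46 ± 0.18 and -1.19 ± 0.18). Pros1, protein S, the cofactor of protein C, is made by endothelium as well as liver. It was far above the dim range on every array, at 9.71 and 9.78 in yolk sac cells, 8.58 and 8.71 in heart tube cells and 8.36 and 8.72 in caudal-half cells (-1.10 ± 0.19 and -1.21 ± 0.19, adjusted p 0.014 and 0.0136). Its first call was lost without any single heart tube or yolk sac array (adjusted p up to 0.0909) and its second without the first caudal-half array or either yolk sac array (up to 0.0695), while Proc lost its second without the second caudal-half or second yolk sac array (up to 0.0662). Serpinc1, antithrombin, read 5.98 and 6.18 in yolk sac cells and 5.02 to 5.54 elsewhere, and its differences of -0.86 ± 0.23 and -0.74 ± 0.23 missed the threshold (adjusted p 0.0634 and 0.107), with the first passing in the fit on mean probe sets (0.0464).

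For fibrinolysis, the zymogen and its plasma inhibitor were both highest in yolk sac cells. Serpinf2, the plasmin inhibitor α2-antiplasmin, read 5.13 and 5.29 there and was dim in heart tube cells (3.17 and 2.73) and caudal-half cells (3.26 and 2.73), with differences of -2.26 ± 0.25 and -2.22 ± 0.25 (adjusted p 0.00273 and 0.00457). Plg, plasminogen, read 5.53 and 4.28 in yolk sac cells, 2.81 and 2.66 in heart tube cells and 3.69 and 2.82 in caudal-half cells. The yolk sac replicates lay apart (SD 0.89), the difference from the heart tube was called (-2.17 ± 0.45, adjusted p 0.0282) and that from caudal-half cells was not (-1.65 ± 0.45, adjusted p 0.0776). Without either heart tube array or the first yolk sac array the call against the heart tube was lost. The difference from caudal-half cells was -2.28 without the second yolk sac array and -1.03 without the first. Serping1, the C1 inhibitor, which also blocks kallikrein and factor XII, varied within tissues (5.78 and 4.35 in heart tube cells, 4.23 and 5.45 in yolk sac cells) and passed no test.

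Counted by role, 11 of the 21 liver-type members were lower in heart tube cells and 9 in caudal-half cells than in yolk sac cells, and 0 were higher in either, where 6.67% and 4.86% of all genes were lower. An unadjusted limma p under 0.05 was found for 12 and 13 of the 21, and for 26.0% and 23.8% of all genes. Between heart tube and caudal-half cells 0 of 21 were called by limma, and 2 had an unadjusted p under 0.05 (19.5% of all genes). Their median difference was -0.86, -0.97 and -0.07 in these comparisons. Both yolk sac arrays lay above the 4 others in 13 of the 21, where 16.2% of all genes did so. Among these, F13b was dim on all 6 arrays and F2 on 5 of them. The yolk sac arrays lay below the 4 others in 1 (F11, dim throughout), where 15.0% of all genes did. Of the 21, 16 had a yolk sac mean above the dim range, 8 a caudal-half mean and 7 a heart tube mean. Over all genes 69.7%, 69.5% and 67.7% had one, so that the liver-type count in yolk sac cells (76.2%) was near that share and the others (38.1% and 33.3%) were below it.

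Markers of some other cells moved with the liver-type members, and others did not. Of 14 measured visceral endoderm genes, limma called 12 lower than in yolk sac cells in each of the other tissues, and their mean level was 9.43 and 9.37 on the yolk sac arrays, 4.36 and 4.41 on those of the heart tube and 4.81 and 4.83 on those of the caudal-half cells. The defining markers Ttr, Afp and Apob averaged 12.42, 12.54 and 10.46 in yolk sac cells, with Apob dim in heart tube cells (3.90) and caudal-half cells (3.81). Hnf4a, a transcription factor of that layer, read 4.08 to 4.40 as tissue means, just above the dim range, and was not called. Of 5 liver cell genes, 0 were called by limma or had an unadjusted p under 0.05 in any comparison, with Alb at 3.98 in yolk sac cells and 4.11 in heart tube cells. Of these 5, 4 were dim in yolk sac cells, 4 in caudal-half cells and 2 in heart tube cells, with 2 dim in all tissues. Ahsg was above the dim range in each tissue (4.58 to 4.68). Erythroid markers averaged 8.20 and 8.38 on the yolk sac arrays, 7.04 and 6.74 on the caudal-half arrays and 6.57 and 6.46 on the heart tube arrays. Of these 8 genes, 5 were lower in heart tube cells than in yolk sac cells and 1 was higher (Klf1, 6.63 against 4.49). In caudal-half cells 5 were lower and 0 higher than in yolk sac cells. Of 7 epithelial genes, 6 were lower in heart tube cells and 2 in caudal-half cells than in yolk sac cells, and 0 were higher. Of 10 mesenchyme genes, 4 were lower and 3 higher in heart tube cells than in yolk sac cells, and 6 lower and 2 higher in caudal-half cells. Col1a1 averaged 12.18 in yolk sac cells, 7.64 in heart tube cells and 8.27 in caudal-half cells. Twist1 averaged 7.47, 10.06 and 6.59 in the same order. The part that cells of any of these types or their RNA had in yolk sac levels was not tested, and fewer cells of a type cannot be told from less RNA per cell in these samples.

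**Figure D2:**
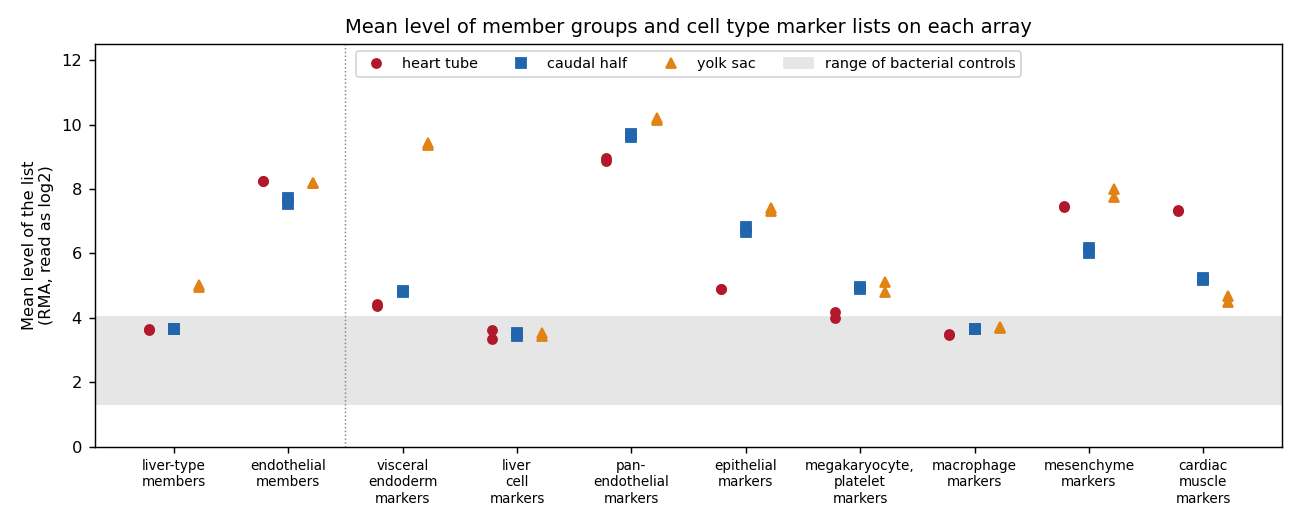
Mean level of the liver-type and endothelial members and of 8 marker lists on each array (2 points per tissue; vertical axis RMA values read as log2), with the range of the bacterial controls shaded. Liver-type members and the visceral endoderm, pan-endothelial, epithelial and mesenchyme lists are highest on both yolk sac arrays. The list means of liver cell and macrophage markers lie in the shaded range in all 3 tissues.

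The endothelial members divided into genes that were highest in yolk sac cells and genes that were not. Thbd, thrombomodulin, read 10.40 and 10.63 in yolk sac cells, 9.02 and 9.18 in heart tube cells and 7.84 and 8.69 in caudal-half cells. The 3 tissues did not overlap, and the differences were -1.41 ± 0.29 for heart tube minus yolk sac and -2.25 ± 0.29 for caudal-half cells minus yolk sac (adjusted p 0.0275 and 0.00742). The first was lost without any single heart tube or yolk sac array (up to 0.136). Heart tube minus caudal-half cells was 0.83 ± 0.29 and was not called (adjusted p 0.189). Procr, the endothelial protein C receptor that presents protein C to thrombomodulin, had the same order, with 8.75 and 9.31 in yolk sac cells, 8.16 and 8.64 in heart tube cells and 7.87 and 7.91 in caudal-half cells. Only its difference between caudal-half cells and yolk sac was called (-1.14 ± 0.26, adjusted p 0.0442), and that call was lost when any single array was left out (adjusted p up to 0.168).

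Tfpi, tissue factor pathway inhibitor, read 10.61 and 10.76 in yolk sac cells, 9.64 and 9.86 in caudal-half cells and 8.91 and 9.42 in heart tube cells. Both yolk sac arrays were the highest. The difference from the heart tube was called (-1.52 ± 0.22, adjusted p 0.00796) and that from caudal-half cells missed the threshold (-0.93 ± 0.22, adjusted p 0.0523). In the fit over every probe set all 4 of the gene were called for heart tube minus yolk sac, at -1.30 to -1.79. For caudal-half cells minus yolk sac 2 of them were called (-1.46 and -1.81). Heart tube minus caudal-half cells was not called with any of the 4 (-0.59 and -0.51 with a pair of them, 0.02 and 0.04 with the other pair), so that no order of these tissues is given. F3, tissue factor, the target of this inhibitor and the starter of clotting, was dim on all 6 arrays (2.76 to 3.06).

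F8, the cofactor of factor IX, is an endothelial product. It read 5.24 and 4.67 in yolk sac cells, 2.80 and 2.87 in caudal-half cells, and 4.24 and 2.65 in heart tube cells. The heart tube replicates had the largest SD of any member there (1.13), and F8 was called only between caudal-half cells and yolk sac (-2.12 ± 0.49, adjusted p 0.0486), a call that was lost without any single caudal-half or yolk sac array (up to 0.189). Without the first heart tube array, heart tube minus yolk sac became -2.30, and without the second it became -0.71. Vwf, von Willebrand factor, the carrier of F8 in plasma and an adhesive protein for platelets, had no such order. It read 7.99 and 8.46 in heart tube cells, 8.47 and 8.52 in caudal-half cells and 8.05 and 6.83 in yolk sac cells, and was not called (yolk sac lower, 1.05 ± 0.39 for caudal-half cells minus yolk sac, adjusted p 0.167). These values hang on the unlike yolk sac replicates. Without the first yolk sac array that difference was 1.66 and heart tube minus yolk sac 1.40, and without the second they were 0.45 and 0.18.

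F2r, the thrombin receptor PAR1, was highest in heart tube cells, at 11.77 and 11.78, against 11.22 and 10.87 in caudal-half cells and 11.05 and 10.86 in yolk sac cells. Its difference from the yolk sac was called (0.82 ± 0.19, adjusted p 0.0405) but not that from caudal-half cells (0.73 ± 0.19, adjusted p 0.0903). The call against the yolk sac was lost without any single heart tube or yolk sac array (adjusted p up to 0.161). The second probe set gave 1.40 and 0.86, both called in the fit over every probe set. Of the 7 endothelial members, 2 were lower and 2 higher in heart tube cells than in yolk sac cells, 3 lower and 0 higher in caudal-half cells than in yolk sac cells (6 with an unadjusted limma p under 0.05, as for 23.8% of all genes), and 1 higher and 0 lower in heart tube cells than in caudal-half cells. The shares of all genes called lower and higher were 6.67% and 5.14%, 4.86% and 4.22%, and 2.65% and 2.86% in these comparisons. Pan-endothelial markers also differed: 7 of 12 were lower in heart tube cells than in yolk sac cells and 3 lower and 1 higher in caudal-half cells, with list means of 10.14 and 10.22 on the yolk sac arrays, 9.61 and 9.71 on the caudal-half arrays and 8.88 and 8.96 on the heart tube arrays. The part that a different share of endothelial cells had in these values was not tested.

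**Figure D3:**
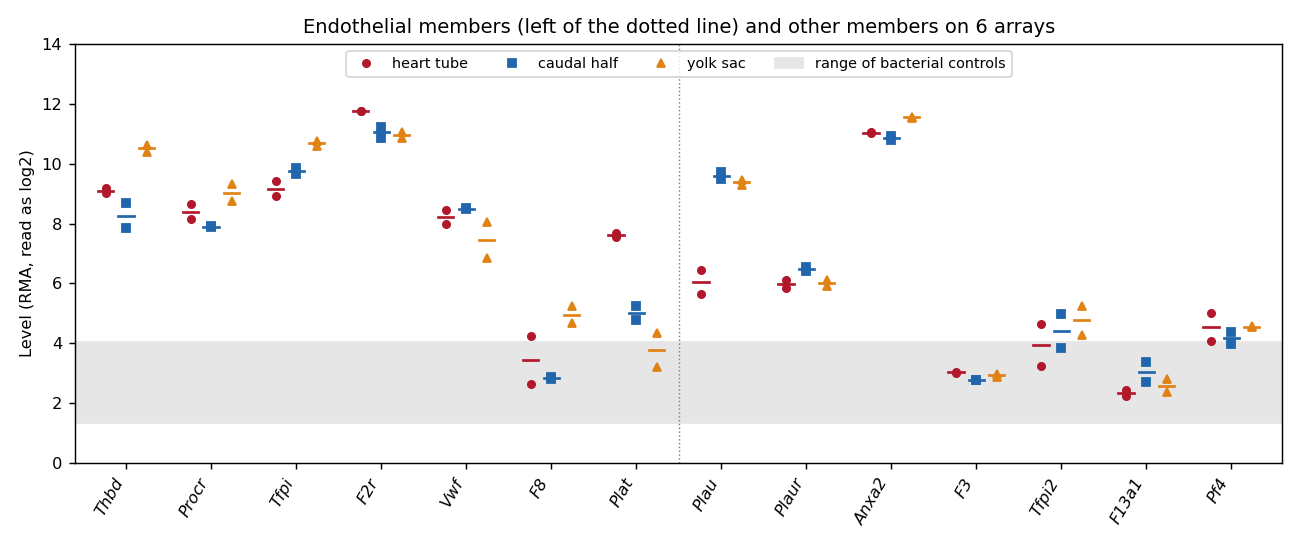
Levels of the 7 endothelial members (left of the dotted line) and of the 7 other members (right) on the 6 arrays (points, 2 per tissue; short lines are means; vertical axis RMA values read as log2), with the range of the bacterial controls shaded. Plat is highest in heart tube cells (7.56 and 7.68) and Plau lowest there (6.45 and 5.65).

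Between heart tube and caudal-half cells the activators of plasminogen had the largest differences of the members, in opposite directions, and both were also called against the yolk sac. Plat, tissue-type plasminogen activator, a secreted endothelial protease, read 7.56 and 7.68 in heart tube cells, 4.79 and 5.23 in caudal-half cells and 3.22 and 4.33 in yolk sac cells. No arrays of different tissues overlapped. The differences were 2.61 ± 0.37 against caudal-half cells (6.11-fold on the log2 reading, adjusted p 0.0122) and 3.85 ± 0.37 against yolk sac (14.4-fold, adjusted p 0.0016). The yolk sac mean of 3.78 lay in the dim range, so that the second fold depends on signal near background. The dimmer probe set gave 1.54 and 3.03, both called, and also called caudal-half cells minus yolk sac (1.49, adjusted p 0.0168), which the brightest did not (1.24 ± 0.37, adjusted p 0.0958). Without the first or second heart tube array or the first caudal-half array, the call against caudal-half cells was lost (adjusted p 0.0733, 0.0786 and 0.0842).

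Plau, urokinase-type plasminogen activator, which acts at the cell surface, read 6.45 and 5.65 in heart tube cells, 9.48 and 9.72 in caudal-half cells and 9.30 and 9.47 in yolk sac cells. Only the heart tube stood apart, by -3.54 ± 0.28 from caudal-half cells and -3.33 ± 0.28 from yolk sac (adjusted p 0.00147 and 0.00101), while caudal-half cells minus yolk sac was 0.21 (95% interval -0.47 to 0.89). Its dimmer probe set, with heart tube arrays at 6.57 and 4.69, gave -2.05 and -2.31 and did not pass (adjusted p 0.153 and 0.0729). Plaur, the receptor that holds urokinase at the cell surface, read 5.85 to 6.55 on the 6 arrays and was not called. Its largest difference was -0.51 ± 0.18 for heart tube minus caudal-half cells (adjusted p 0.203). Markers of other cells also differed between the tissues. Cardiomyocyte genes averaged 7.35 and 7.32 on the heart tube arrays, 5.18 and 5.25 on the caudal-half arrays and 4.67 and 4.49 on the yolk sac arrays, and epithelial genes 4.90 and 4.90, 6.82 and 6.67, and 7.40 and 7.32. Of 10 mesenchyme genes, 6 were higher and 0 lower in heart tube than in caudal-half cells, and 3 higher and 4 lower than in yolk sac cells, with list means of 7.47 and 7.44 on the heart tube arrays, 6.18 and 6.03 on the caudal-half arrays and 7.99 and 7.75 on the yolk sac arrays. Among them Pdgfra averaged 8.36, 5.25 and 4.05 in heart tube, caudal-half and yolk sac cells. Col1a1 averaged 7.64, 8.27 and 12.18 in the same order, so that the list did not move as a whole. The part of these cell types in the levels of Plat and Plau was not tested.

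**Figure D4:**
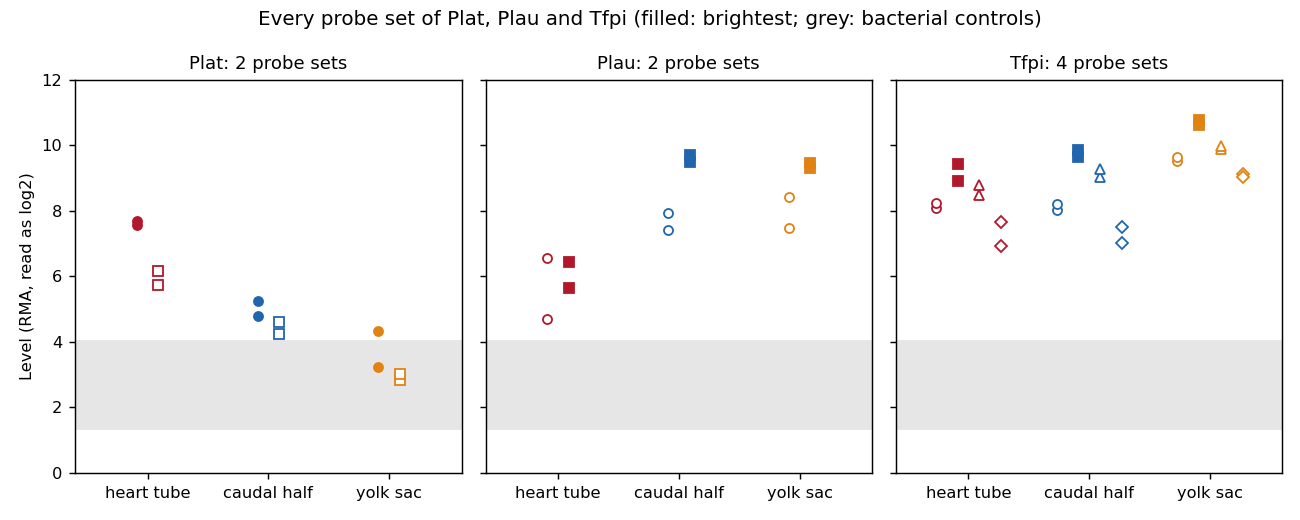
Levels of every probe set of Plat (2), Plau (2) and Tfpi (4) by tissue (2 points per tissue and probe set; filled symbols, the probe set used; vertical axis RMA values read as log2), with the range of the bacterial controls shaded. Both Plat probe sets are highest in heart tube cells, and the dimmer Plau probe set spreads from 4.69 to 6.57 there.

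Anxa2, annexin A2, which binds plasminogen and its activator on endothelium, read 11.53 and 11.58 in yolk sac cells, 11.05 and 11.03 in heart tube cells and 10.80 and 10.92 in caudal-half cells. The tissues did not overlap although the differences were small, and only caudal-half cells minus yolk sac was called (-0.69 ± 0.16, adjusted p 0.0456). With the mean of all probe sets that difference was -0.30 (adjusted p 0.311), and the call was also lost without any single array of the 6 (up to 0.177). S100a10, the partner protein of annexin A2 and not a member, read 12.02 and 12.07 in yolk sac cells and 11.19 to 11.70 elsewhere, and was called in the same comparison (-0.83 ± 0.16, adjusted p 0.0263).

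Members made by blood cells were in or near the dim range. Pf4, platelet factor 4 of megakaryocytes, read 3.99 to 5.02 over all arrays and differed between tissues by at most 0.38. F13a1, the catalytic subunit of factor XIII, made by megakaryocytes and macrophages, was dim on all 6 arrays (2.24 to 3.37). Neither was called. The sort had removed CD41-positive cells, and the defining markers of megakaryocytes and platelets read 2.34 to 2.36 for Ppbp and 5.04 to 5.10 for Gp9 as tissue means, while Itga2b, which encodes CD41, was at 8.28 in yolk sac cells, 6.87 in heart tube cells and 6.61 in caudal-half cells. Of 9 markers on that list 3 were lower in heart tube cells than in yolk sac cells (Itga2b, Clec1b and Itgb3). Macrophage markers were not called in any comparison by limma (0 of 12; 2, 4 and 0 of them had an unadjusted p under 0.05), with Ptprc and Adgre1 dim in all tissues and Csf1r at 4.19 to 4.44. Of the 12, 8 were dim in all tissues, while Cd68 (5.90 to 6.92) and Fcgr3 (4.72 to 5.89) were above the dim range in each. Tfpi2, a matrix-bound inhibitor of plasmin and other proteases, varied between replicates as much as between tissues (3.24 and 4.66 in heart tube cells, 4.99 and 3.84 in caudal-half cells, 4.29 and 5.24 in yolk sac cells).

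**Figure D5:**
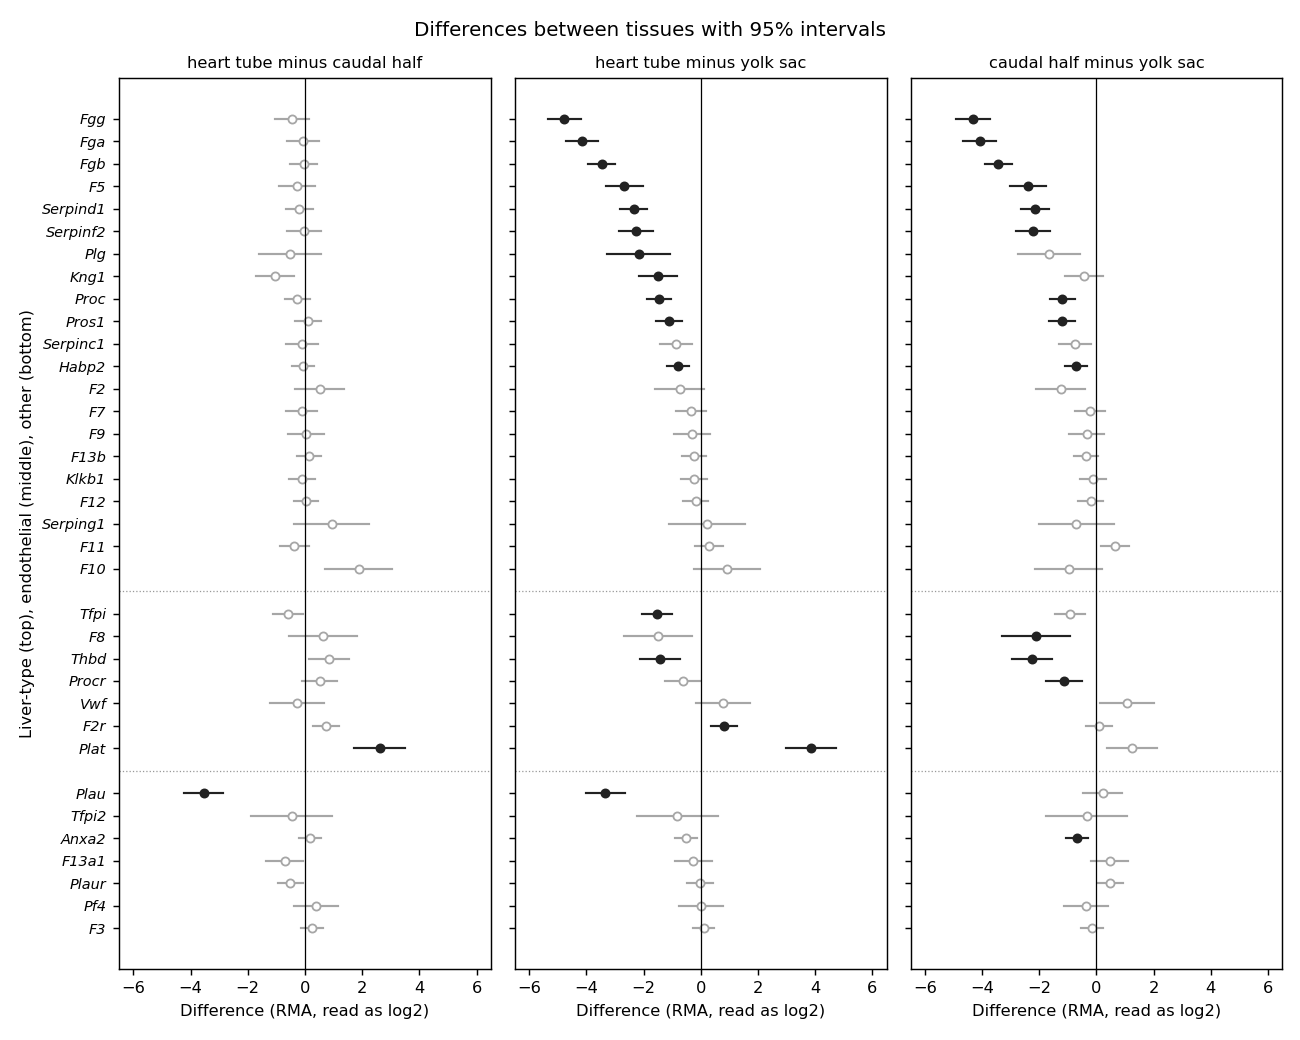
Difference between tissues for each of the 35 members in the 3 comparisons (horizontal axis RMA values read as log2; points are limma estimates, lines 95% intervals; filled points were called at an adjusted p under 0.05). Plat and Plau are the only filled points between heart tube and caudal-half cells, and Fga, Fgb and Fgg lie farthest below 0 against the yolk sac.

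Of 20 further genes of the same pathways, 18 were measured. In heart tube cells 1 was higher and 4 lower than in yolk sac cells (5.14% and 6.67% of all genes). In caudal-half cells 0 were higher and 7 lower than in yolk sac cells (4.22% and 4.86% of all genes). In heart tube cells 2 were higher and 1 lower than in caudal-half cells (2.86% and 2.65% of all genes). Thbs1, thrombospondin 1, a matrix and platelet protein that binds plasminogen and fibrinogen, read 7.44 and 7.59 in heart tube cells and 3.82 to 4.30 on the 4 other arrays (3.46 ± 0.21 and 3.57 ± 0.21, adjusted p 0.000714 and 0.000297). Those 4 arrays were in or near the dim range. Plgrkt, a plasminogen receptor, was higher in heart tube cells than in caudal-half cells (1.39 ± 0.29, adjusted p 0.0479). Calls of these further genes were not followed through the alternative processing, which was done gene by gene for members only.

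F2rl3, the thrombin receptor PAR4, ran against F2r. It read 6.66 and 6.93 in yolk sac cells, 5.58 and 5.32 in caudal-half cells and averaged 4.24 in heart tube cells, and was called in all 3 comparisons (-2.56 ± 0.23 for heart tube minus yolk sac, -1.34 ± 0.23 for caudal-half cells minus yolk sac and -1.21 ± 0.23 for heart tube minus caudal-half cells). F2rl2, PAR3, was lower in caudal-half cells than in yolk sac cells (-2.10 ± 0.44, adjusted p 0.035), and both caudal-half arrays were dim (2.31 and 3.77). Serpina10, the inhibitor of factor X that works with protein Z, was dim on every array, at 3.89 and 3.42 in yolk sac cells and 2.02 to 2.46 elsewhere (-1.29 ± 0.21 and -1.61 ± 0.21). Serpinb6a, an intracellular protease inhibitor, and Gas6, a vitamin K-dependent relative of protein S, were lower than in yolk sac cells by -2.29 and -1.12 in heart tube cells and by -1.91 and -1.48 in caudal-half cells. Vkorc1, which recycles vitamin K for the carboxylation of clotting factors, was lower in caudal-half cells than in yolk sac cells (-0.92 ± 0.20, adjusted p 0.037).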

How the data were processed

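The submitters' processing notes name RMA and affy for the deposited signal intensities. The base of the exponential applied to RMA's log2 values, tool versions and the genome build are not stated there. The natural log of the signals (0.899 to 14.6) covers the usual range of RMA values, whereas log2 of the highest signal would be 21.1, so the natural log was read as log2. Of 45101 probe sets, 34945 carried 1 symbol in the platform annotation, 932 several and 9160 none, beside 64 controls. The brightest probe set stood for each gene. limma 3.58.1 in R 4.3.3 (lmFit, eBayes) was fitted over 18193 genes and 6 arrays without a covariate (3 residual and 3.48 prior degrees of freedom), with two-sided tests and Benjamini-Hochberg adjustment over all genes in each comparison, and was tested on simulated data. Precision is limited by the array number (median SE 0.21, smallest differences called 0.64 to 0.73). Named genes were all measured members, pathway genes that were called and cell type markers that moved with or against a result or define a cell type. The members and lists were chosen with earlier results of these data known. Promoter windows came from RefSeq (GRCm38.p6), with 28 members searched and Proc left out. The p-values measure the spread between samples labelled as independent biological replicates. Alternatives were other scalings, a filter on dim genes, other uses of probe sets, another variance model, a replicate block, the 4 arrays compared alone and each array left out.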

Additional observations from a re-analysis of the deposited data

How the results depend on the processing

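No called difference of a member changed sign under any of the 15 alternatives. In heart tube minus yolk sac 10 of the 16 called members, and in caudal-half cells minus yolk sac 7 of the 13, kept their call under every one. Fga, Fgb, Fgg, F5, Serpind1 and Serpinf2 did so in both comparisons, and Plau did in both of its own. Leaving out single arrays gave 1 to 2 called members in heart tube minus caudal-half cells (2 in the main analysis), 10 to 16 in heart tube minus yolk sac (16) and 8 to 10 in caudal-half cells minus yolk sac (13), lowest without the second heart tube array in the second and without either caudal-half array in the third. These fits have fewer samples, and a lone array is assumed to vary like the other groups. An intensity trend in the variance called 4 members in heart tube minus caudal-half cells, adding F10 and F2r. F2r, Habp2, Kng1, Plg, Pros1 and Thbd lost their call in heart tube minus yolk sac without some single array. Anxa2, F8, Habp2, Proc, Procr and Pros1 did so in caudal-half cells minus yolk sac. Arrays with the same replicate number shared almost no deviation from their tissue means (correlations -0.01 to 0.05). This cannot show whether samples of the same number were collected together. With the replicate block 3, 16 and 14 members were called, with F10 (adjusted p 0.0149), F2 (0.0359), Plg (0.036) and Tfpi (0.0454) gained and Anxa2 (0.0721) and Habp2 (0.0705) lost, the last 5 in caudal-half cells minus yolk sac. Over all genes an intensity trend raised the calls in caudal-half cells minus yolk sac from 767 higher and 885 lower to 1229 and 1167, and the 4 arrays compared alone gave 475 and 680. Over all genes, leaving out an array of a tissue compared gave 208 to 285 higher and 168 to 271 lower in heart tube minus caudal-half cells (520 and 482 in the main analysis), 387 to 650 and 549 to 840 in heart tube minus yolk sac (936 and 1214) and 222 to 447 and 416 to 588 in caudal-half cells minus yolk sac. Members near the smallest called differences are limited by the 2 arrays a tissue, and those in the range of the bacterial controls by signal.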
